A study of Mus musculus with 5 samples.

Results

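Neutrophil granule and maturation genes are described here across 5 mouse RNA sequencing libraries. The members are 32 genes chosen by symbol, all 32 of them present among the 34970 gene symbols of the count table. They encode the proteins of the primary (azurophil), specific and later granules of neutrophils, the receptors of the mature cell, and enzymes and inhibitors that act with them. Each library is a group of its own: blood cells (PB), bone marrow (BM), the complex of myeloid-like cells (MCC), fibroblasts from mouse embryos (MEF), and pluripotent stem cells made by induction (iPSC), in a series on turning fibroblasts directly into macrophages. All 5 are labelled wild type, and the design text describes the blood cells as positive for CD45, the leukocyte surface phosphatase. Strain, age, the number of animals pooled and the way MCC and iPSC were made are not stated in the labels.

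Neutrophils are made in the marrow and leave it as short-lived blood cells. Their granules are filled in a fixed order: serine proteases and myeloperoxidase are made at the promyelocyte stage, lactoferrin and the other specific granule proteins at the myelocyte and metamyelocyte stages, and surface receptors and secretory proteins as the nucleus becomes segmented. Transcription of the early granule genes is shut down again as the cell matures, so the protein outlasts the messenger RNA. Marrow holds every stage, and blood normally holds the late ones.

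Levels are given as CPM, a gene's reads relative to all counted reads of its library, scaled to a common library size by the trimmed mean of M values. Without replicates, differences carry neither a test nor a p-value. A gene was counted as higher or lower when the CPM ratio was at least 4-fold and the higher library reached 5 CPM, with counts under 3 set to 3 for these calls and for medians over genes. A fold printed for a gene with 1 or 2 reads uses the reads as counted, and one for 0 reads is a bound at 3 counts. Brackets after a fold hold its 95% counting interval (exact, conditional binomial), which covers the counting of reads alone. Total counts ranged from 30078366 in PB to 47557598 in MCC, and 3 reads corresponded to between 0.0574 CPM in iPSC and 0.100 CPM in PB. PB carries a library code far from the other 4, so a batch and the blood group cannot be told apart. In whole tissue or mixed cells, fewer neutrophils and less RNA per neutrophil cannot be told apart either.

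The 32 members took 4.99% of all reads in BM, 0.398% in PB, 0.0646% in MCC, 0.0885% in MEF and 0.0324% in iPSC. In BM all 32 reached 5 CPM, in PB 26, in MCC 8, in iPSC 4 and in MEF 1. Ngp and Ltf ranked 2nd and 4th of all genes in BM. By median the members stood at 388 CPM in BM and 70.8 CPM in PB. The 3 other libraries had medians of 0.359 CPM in MCC, 0.0765 CPM in iPSC and 0.0231 CPM in MEF.

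**Figure D1:**
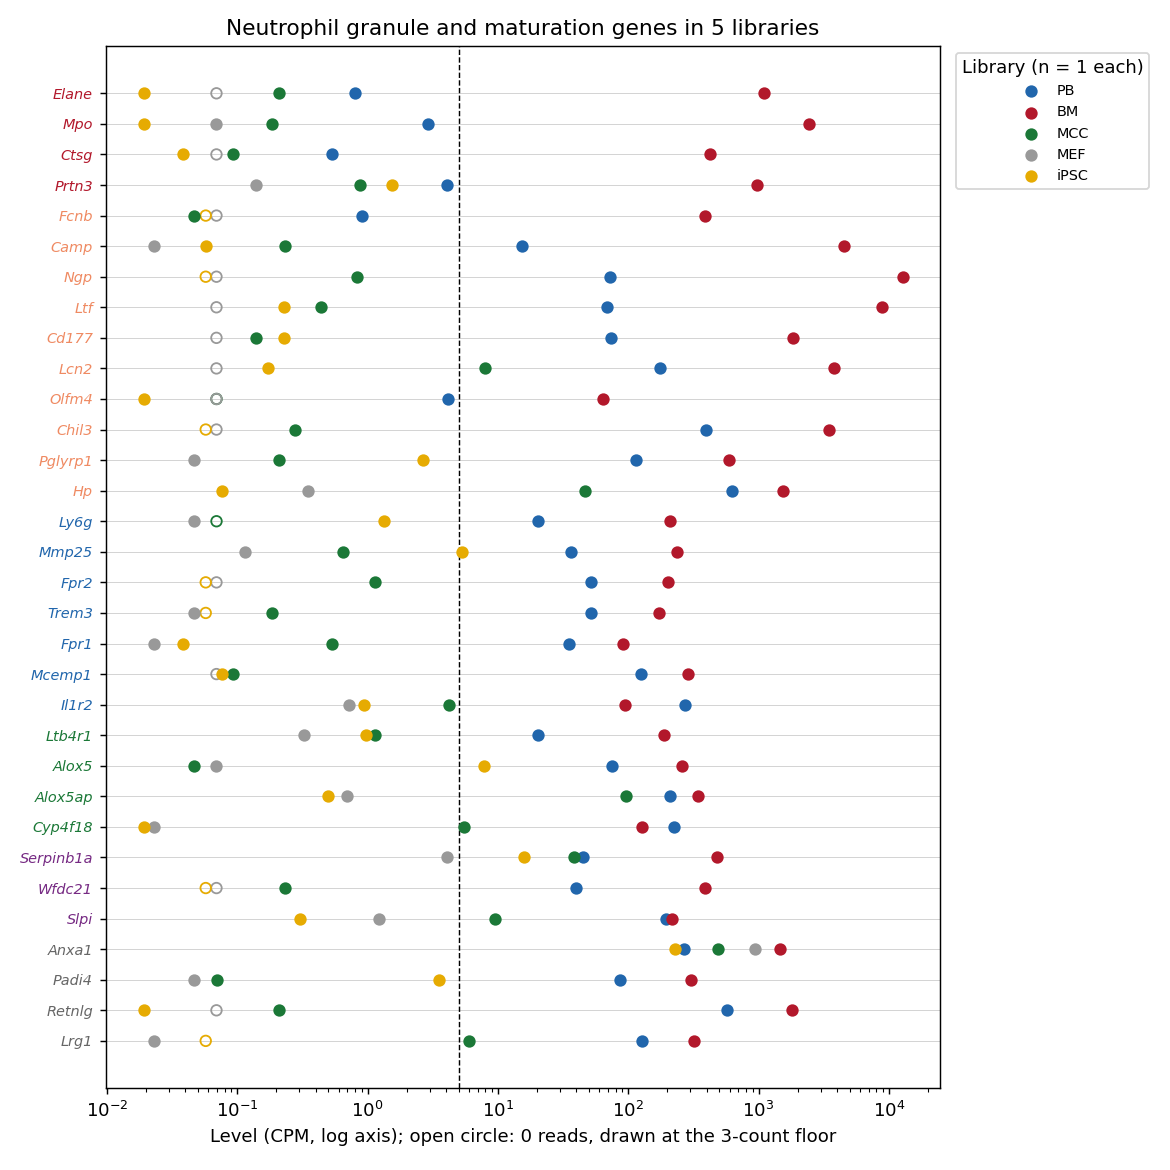
Level of each of the 32 members in the 5 libraries, in CPM on a log axis, with 1 point per library; open circles are genes with 0 reads, drawn at the 3-count floor, the dashed line is 5 CPM, and gene names are coloured by role group. BM is the rightmost point for every member except Il1r2 and Cyp4f18. By group median, the gap between BM and PB is widest for the primary granule genes at the top, followed by the specific granule and secreted genes.

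Blood was compared with marrow first, and cells of different neutrophil stages were not measured apart in either library. Of the 32 members, 19 were at least 4-fold lower in PB than in BM and 0 were higher, where 9.68% of the 11377 genes tested were lower and 6.32% higher (16.0% in either direction). The members' median log2 ratio of PB over BM was −2.91, against −0.18 over all genes tested. The difference was unequal across the role groups. The median log2 ratio was −9.67 for the 4 primary granule genes, −4.54 for the 10 specific granule and secreted genes, −3.29 for the 3 protease inhibitors, −1.75 for the 7 surface receptor and membrane genes, −1.72 for 4 other genes of mature neutrophils and −1.25 for the 4 leukotriene genes. Scaled to equal reads of Csf3r, the receptor for the neutrophil growth factor G-CSF, 29 of the 32 were at least 4-fold lower in PB. This scaling, chosen after seeing the data, moves every log2 ratio by −1.43 alike. Over all genes it gave 4043 lower and 132 higher in place of 1101 and 719. The shift depends on the gene chosen, since Csf3r was higher in PB than in BM, at 1985 against 735 CPM. The neutrophil chemokine receptor gene Cxcr2 was lower in PB, at 236 against 330 CPM.

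The primary granule genes were abundant in marrow, at 426 CPM or more, and below 5 CPM in blood. Mpo, which encodes myeloperoxidase, the enzyme that makes hypochlorous acid, had 2422 CPM in BM, 2.91 in PB, 0.185 in MCC, 0.0694 in MEF and 0.0191 in iPSC. Elane, neutrophil elastase, had 1103 CPM in BM, 0.804 in PB, 0.208 in MCC, 0 in MEF and 0.0191 in iPSC. Prtn3, proteinase 3, had 981.5 CPM in BM, 4.05 in PB, 0.880 in MCC, 0.139 in MEF and 1.55 in iPSC. All 4 genes of this group, with the serine protease gene Ctsg (cathepsin G) at 426 CPM in BM and 0.536 in PB, were thus high in 1 library and below 5 CPM in the other 4. The PB levels rested on 87 reads for Mpo, 24 for Elane, 121 for Prtn3 and 16 for Ctsg. The ratio to marrow was largest for Elane, 1373-fold (922 to 2142) lower in PB, and smallest in the group for Prtn3, 242-fold (203 to 292) lower. Mpo was 832-fold (674 to 1038) and Ctsg 796-fold (490 to 1392) lower. Prtn3 and Elane are neighbours on chromosome 10, at 79874476 to 79883174 and 79886247 to 79888215 on the plus strand of mm10, with 3072 bases between them. Ctsg lies on chromosome 14 at 56099881 to 56102574 and Mpo on chromosome 11 at 87793581 to 87804413. Of the exon bases of Prtn3, 9.18% lie in exons of Plppr3 on the opposite strand, and of Mpo 14.9% in exons of Gm11505. The strand setting of the counting is not given, so low counts of these 2 genes are uncertain.

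The specific granule and secreted genes spanned the widest range of ratios. Ltf, which encodes the iron-binding protein lactoferrin, had 8927 CPM in BM, 69.2 in PB, 0.440 in MCC, 0 in MEF and 0.230 in iPSC. Ngp, neutrophilic granule protein, had 12730 CPM in BM, 72.4 in PB, 0.833 in MCC and 0 in both MEF and iPSC. Camp, the precursor of the cathelicidin antimicrobial peptide, had 4533 CPM in BM, 15.4 in PB, 0.231 in MCC, 0.0231 in MEF and 0.0574 in iPSC. In PB all 3 were above the 4 primary granule genes, the highest of which had 4.05 CPM. In PB, Camp was 295-fold (269 to 324), Ngp 176-fold (169 to 183.5) and Ltf 129-fold (123.5 to 135) lower than in BM. Fcnb, ficolin B, a lectin that starts the complement pathway, was lower still, at 389 CPM in BM and 0.904 in PB, 430-fold (296 to 653). Olfm4, an olfactomedin protein of a subset of neutrophils, was the least abundant of the 32 in BM at 63.8 CPM, with 4.15 CPM in PB, 15.4-fold (12.8 to 18.6) lower.

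The remaining specific granule and secreted genes kept higher levels in blood. Lcn2, a lipocalin that binds bacterial iron carriers, had 3807 CPM in BM and 175 in PB, 21.7-fold (21.1 to 22.3) lower. Cd177, a surface protein also stored in specific granules, had 1837 CPM in BM and 74.1 in PB, 24.8-fold (23.8 to 25.9) lower. Chil3, a chitinase-like lectin, had 3442 and 396 CPM, 8.68-fold (8.52 to 8.85) lower. Pglyrp1, a peptidoglycan recognition protein, had 597 and 114 CPM, 5.22-fold (5.04 to 5.41) lower. Hp, haptoglobin, which binds free haemoglobin, was the 1 gene of the 10 that missed the threshold, at 1554 CPM in BM and 622 in PB, 2.50-fold (2.46 to 2.54) lower. Hp was also the most abundant member in PB. Among relatives of these genes, Chil1 stood at 661 CPM in BM and 231 in PB and Chil4 at 1.10 and 0.100 CPM. Fcna, the ficolin of macrophages, stood at 51.0 CPM in BM, 1.84 in PB and 22.5 in MCC. Chil3 and Chil4 are close in sequence, so a split of shared reads between them is uncertain.

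**Figure D2:**
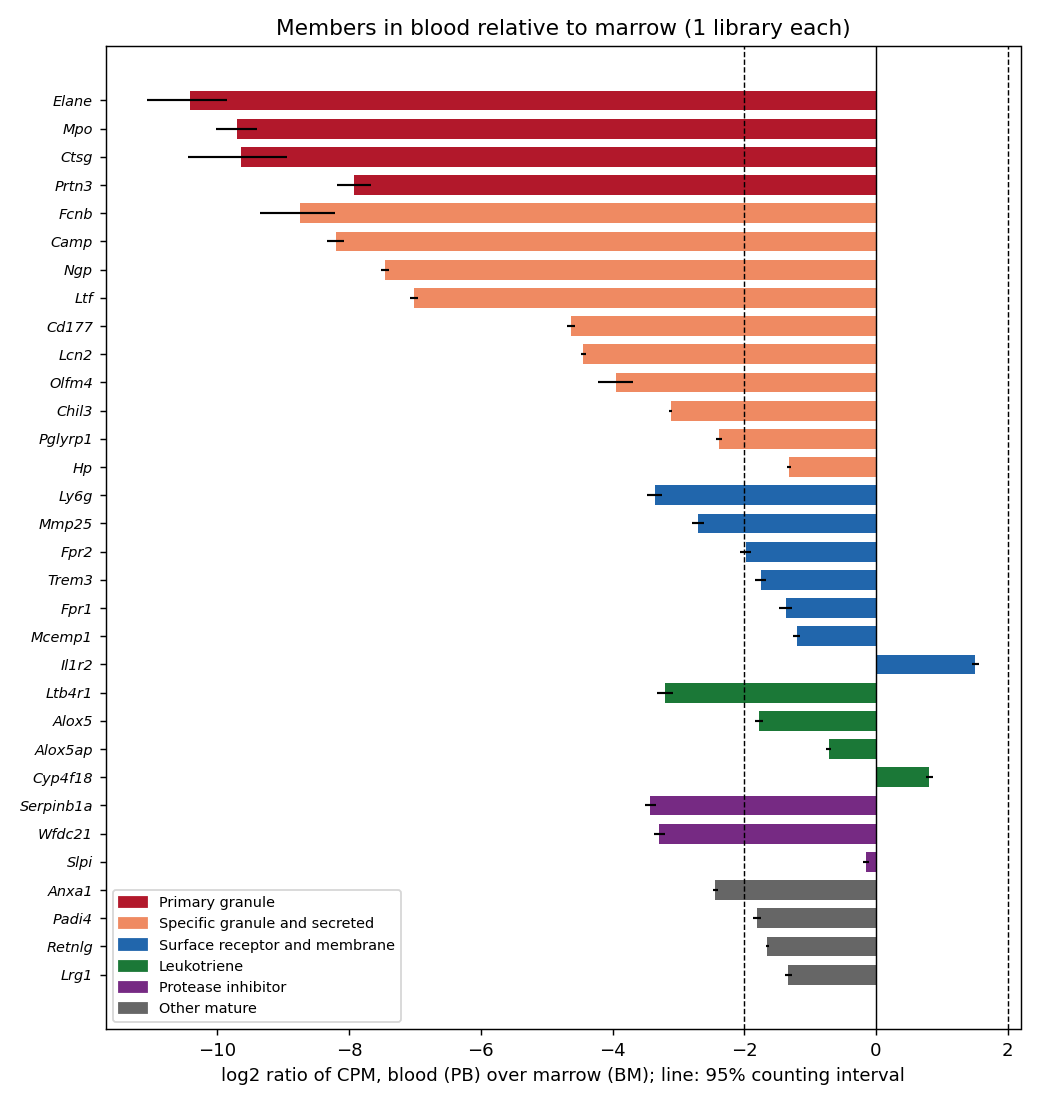
Log2 ratio of CPM in PB over BM for the 32 members (1 library each), ordered within role groups shown by colour; black lines are 95% counting intervals and dashed lines mark 4-fold. Elane is the lowest at −10.42 and Il1r2 the highest at 1.51, and every primary granule gene lies below every gene of the receptor, leukotriene, inhibitor and other mature groups.

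Surface receptors and membrane proteins of neutrophils differed less between the libraries. Ly6g, the surface antigen used to sort mouse neutrophils, had 209 CPM in BM, 20.4 in PB, 0 in MCC, 0.0462 in MEF and 1.34 in iPSC. Mmp25, a membrane-anchored metalloproteinase, had 238 CPM in BM, 36.6 in PB, 0.648 in MCC, 0.116 in MEF and 5.32 in iPSC. These were the 2 of 7 past the threshold, Ly6g 10.3-fold (9.46 to 11.2) and Mmp25 6.52-fold (6.12 to 6.94) lower in PB. The formyl peptide receptor genes Fpr1 and Fpr2, which sense bacterial peptides, stood at 91.2 and 204 CPM in BM and at 35.2 and 51.6 CPM in PB. Fpr2 was just short of the threshold, 3.95-fold (3.74 to 4.17) lower in PB, and Fpr1 was 2.59-fold (2.41 to 2.77) lower. The pair lies on chromosome 17 with 3883 bases between the genes. Trem3, an activating receptor of myeloid cells, was 3.37-fold (3.19 to 3.56) lower in PB at 51.5 CPM. Mcemp1, a small membrane protein of myeloid cells, was 2.30-fold (2.22 to 2.39) lower at 124 CPM. Il1r2, the decoy receptor that binds interleukin 1 without signalling, went the other way, with 271 CPM in PB against 95.3 CPM in BM. In MCC it had 4.24 CPM, in iPSC 0.937 and in MEF 0.717. It was 2.84-fold (2.74 to 2.95) higher in PB, short of the threshold. The signalling receptor gene Il1r1 was lowest in PB instead, at 174 CPM in MCC, 56.5 in MEF, 6.85 in BM, 2.77 in iPSC and 0.636 in PB. Ly6g belongs to a family of similar genes, of which Ly6c2 stood at 822 CPM in BM and 208 in PB, so shared reads may be split between them.

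The leukotriene genes cover the making, sensing and breakdown of leukotriene B4, a lipid that attracts neutrophils. Alox5, the lipoxygenase that starts the pathway, had 257 CPM in BM, 75.0 in PB, 0.0463 in MCC, 0.0694 in MEF and 7.88 in iPSC. Its activating protein gene Alox5ap had 345 CPM in BM, 210 in PB, 96.3 in MCC, 0.694 in MEF and 0.497 in iPSC. Enzyme and partner thus stood apart in MCC, where Alox5 had 2 reads and Alox5ap 4161. Ltb4r1, the high-affinity receptor for leukotriene B4, was 9.18-fold (8.45 to 9.99) lower in PB, at 20.4 CPM against 187. Alox5 was 3.42-fold (3.27 to 3.58) and Alox5ap 1.65-fold (1.60 to 1.70) lower. Cyp4f18, a cytochrome that breaks down leukotriene B4, was the other member higher in PB, at 224 CPM against 128, 1.75-fold (1.69 to 1.81), with 5.53 CPM in MCC.

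Of 12 further genes of this pathway and its neighbours, 8 reached 5 CPM in PB or BM, 4 of them higher in PB and 2 lower. Lta4h, the hydrolase that forms leukotriene B4, was 7.54-fold (7.23 to 7.87) lower in PB, at 78.2 CPM against 590. Ltc4s, which forms the cysteinyl leukotrienes instead, stood at 10.9 CPM in MCC and below 1 CPM in the other 4 libraries. The 4 higher in PB were Ptgs2, Alox12, Alox15 and Cysltr2, and the other lower one was Ptgs1, named after their values were seen.

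Protease inhibitors differed by gene. Serpinb1a, an inhibitor of elastase, cathepsin G and proteinase 3, had 483 CPM in BM, 44.96 in PB, 38.3 in MCC, 4.09 in MEF and 15.9 in iPSC. Wfdc21, a small whey acidic protein domain gene, had 386 CPM in BM, 39.5 in PB and 0.231 in MCC, and 0 reads in MEF and iPSC. In PB both were lower, Serpinb1a 10.7-fold (10.2 to 11.4) and Wfdc21 9.77-fold (9.21 to 10.4). Slpi, the secretory leukocyte protease inhibitor, was close in both libraries, at 217 CPM in BM and 195 in PB, a log2 ratio of −0.15 that turned to 0.03 with DESeq2 size factors. Serpinb1b and Serpinb1c, relatives of Serpinb1a, were below 1 CPM in all 5 libraries.

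Of 4 other genes of mature neutrophils, Anxa1 was past the threshold. Anxa1, annexin A1, a lipid-binding protein that limits inflammation, had 1457 CPM in BM, 943.5 in MEF, 488 in MCC, 269 in PB and 230 in iPSC, and was the 1 member above 100 CPM in all 5 libraries. It was 5.42-fold (5.29 to 5.54) lower in PB than in BM. Retnlg, a resistin-like protein of neutrophils, had 1799 CPM in BM and 574 in PB, 3.14-fold (3.08 to 3.19) lower, and at most 9 reads elsewhere. Padi4, the enzyme that citrullinates histones when neutrophils release chromatin, had 301.5 CPM in BM and 86.6 in PB, 3.48-fold (3.34 to 3.63) lower. Lrg1, a leucine-rich glycoprotein of specific granules and plasma, had 320 CPM in BM and 127 in PB, 2.52-fold (2.43 to 2.61) lower. The resistin relatives Retn, Retnla and Retnlb stayed below 6 CPM in all 5 libraries.

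The division of the members' reads among the role groups therefore differed between the libraries. In BM 75.8% of the members' 2036211 reads came from specific granule and secreted genes and 9.87% from primary granule genes. In PB, with 119712 such reads, the shares were 38.5% and 0.207%. Surface receptor genes held 2.60% of the members' reads in BM and 14.7% in PB, and leukotriene genes 1.83% and 13.2%. Ngp alone gave 25.5% of the members' reads in BM and 1.81% in PB, whereas Hp gave 3.11% and 15.5% and Retnlg 3.60% and 14.3%. In MCC 68.7% and in MEF 99.2% of the members' reads came from Anxa1.

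**Figure D3:**
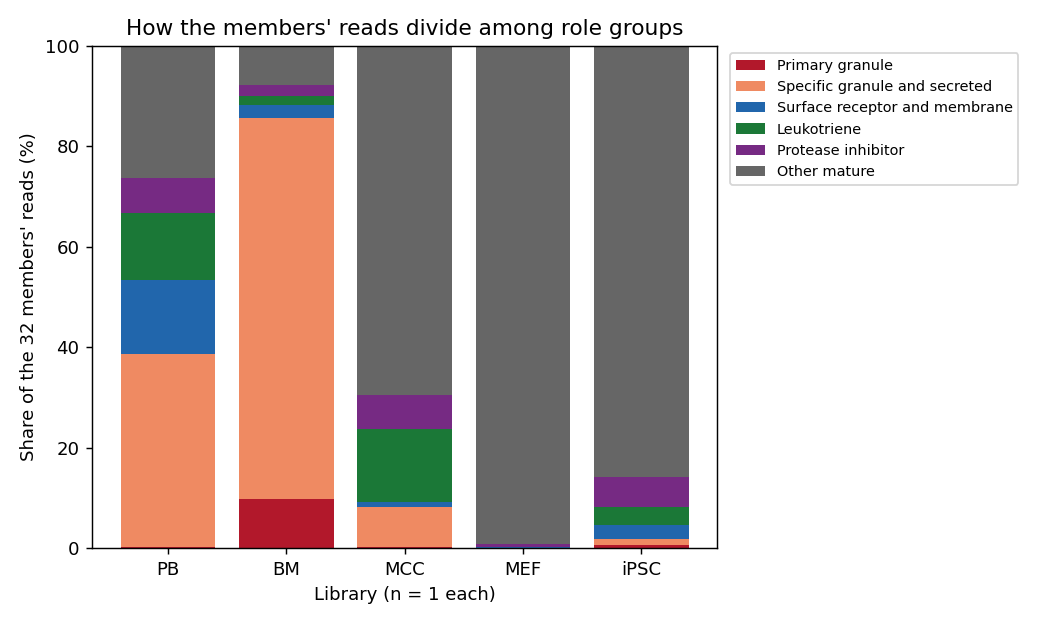
Share of the reads of the 32 members, in percent, held by each role group in each library (n = 1 each). Specific granule and secreted genes hold 75.8% in BM and 38.5% in PB, and the group that contains Anxa1 holds most of the reads in MCC, MEF and iPSC.

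Levels of different genes were compared per kilobase of annotated exon. On that scale (CPM per kilobase) Ngp at 10420, Camp at 5980 and Retnlg at 3034 led in BM, ahead of Ltf at 2587. In PB the order was Retnlg at 967 CPM per kilobase, Hp at 387.5, Chil3 at 243, Slpi at 165 and Alox5ap at 148. Retnlg was the 1 member among the first 3 in both. Ngp moved from rank 1 in BM to rank 14 in PB and Camp from rank 2 to rank 20. Il1r2 moved from rank 30 to rank 6.

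Other neutrophil genes, from lists that do not overlap the members, were read beside them. Of 25 further granule and phagocyte genes in the table, 21 reached 5 CPM in PB or BM, 7 were lower in PB and 0 higher. S100a9 and S100a8, which encode the calcium-binding calprotectin of the cytosol, stood at 19060 and 12250 CPM in BM and at 3583 and 1516 CPM in PB. They were 5.32-fold (5.29 to 5.35) and 8.08-fold (8.001 to 8.157) lower. Lyz2, a lysozyme gene, was 2.14-fold (2.12 to 2.15) lower at 3202 CPM in PB. Ms4a3, a membrane gene of granulocyte and monocyte precursors chosen here after its values were seen, lay with the primary granule genes, at 212 CPM in BM and 5 reads (0.167 CPM) in PB.

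Of 25 further genes of mature neutrophils and other myeloid cells, 20 had a higher CPM in PB than in BM, 4 of them at least 4-fold, and 1 was lower by the same rule. Their median log2 ratio was 0.91, opposite in sign to the members' median. Csf3r had 1985 CPM in PB and 735 in BM, 2.70-fold (2.67 to 2.74) higher. Cxcr2, the chemokine receptor through which neutrophils leave the marrow, had 236 CPM in PB and 330 in BM, and was 1.40-fold (1.36 to 1.44) lower. The 4 genes at least 4-fold higher in PB were Il1b, at 2573 against 129 CPM, and the monocyte and neutrophil receptor genes Cd14, Tlr2 and Clec4e, the last 3 named after their values were seen. Il1b, the gene of the cytokine that Il1r2 binds, was 19.9-fold (19.3 to 20.4) higher.

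Cells other than neutrophils also differed between the blood and marrow libraries, and their part in these ratios was not tested. Of 12 T and NK cell markers 9 passed the threshold upward in PB and 0 downward, with summed levels of 1421 CPM in PB and 219 in BM, and 0 of them had no reads in either library. Il7r and Lck led in PB at 341 and 225 CPM. The 10 B cell markers summed to 1883 CPM in PB and 813 in BM, led in PB by Pax5 at 449.5 CPM, whereas the precursor genes Vpreb1 and Igll1 were at 0.0335 and 0.134 CPM in PB and at 23.6 and 28.0 in BM. The 14 monocyte and macrophage markers summed to 1435 and 2151 CPM, and 5 were at least 4-fold lower in PB and 0 higher. Those 5 were C1qa, C1qb, C1qc, Mrc1 and Cd163, while 6 of the 14 had a higher CPM in PB than in BM. The 14 were led in PB by Csf1r, at 550.5 CPM against 246 in BM, and Ly6c2, at 208 against 822. The 10 erythroid markers took 9.39% of the counts in PB and 1.40% in BM. The globin genes were higher in PB, and Klf1, Epor, Gata1 and Slc4a1 were lower. Of 10 mast cell, basophil and eosinophil markers, 7 were lower in PB, with summed levels of 37.9 CPM against 904.

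Regulators of granulocyte formation were unequal too. Of 15 such genes 14 reached 5 CPM in PB or BM, 4 were lower in PB and 2 higher. Cebpe, the transcription factor needed for specific granules, had 186 CPM in BM, 1.94 in PB, 0.306 in iPSC, 0.0926 in MCC and 0 in MEF. In PB it was 96.0-fold (74.2 to 126.5) lower. Gfi1, a repressor that directs progenitors to the neutrophil fate, was 5.55-fold (4.96 to 6.23) lower at 11.5 CPM. Cebpa, which acts earlier, stood at 118 CPM in BM, 31.5 in PB, 154 in MCC, 17.1 in MEF and 7.92 in iPSC. In MCC Cebpa was thus at a level near that of marrow, while Cebpe had 4 reads and Gfi1 had 1. Cxcl12, the chemokine that holds neutrophils in the marrow, had 197.5 CPM in BM and 0.234 in PB, and 897.5 CPM in MCC. The gene of its receptor, Cxcr4, was at 380.1 CPM in BM, 1368 in PB and 16.0 in MCC.

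Camp, Ngp and Ltf lie near one another on chromosome 9. Camp is at 109847379 to 109849617 on the minus strand, Ngp at 110419747 to 110423012 and Ltf at 111019271 to 111042767 on the plus strand of mm10, within a stretch of 1.195 megabases. Of 16 other genes in that stretch that reached 5 CPM in PB or BM, 2 were at least 4-fold lower in PB, 2 were higher and the median log2 ratio was −0.07. The 2 lower ones were Cdc25a, a cell cycle phosphatase gene, and Prss50, and the 2 higher ones Tmie and Als2cl, all named after their values were seen. The other 12 lay within 4-fold.

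**Figure D4:**
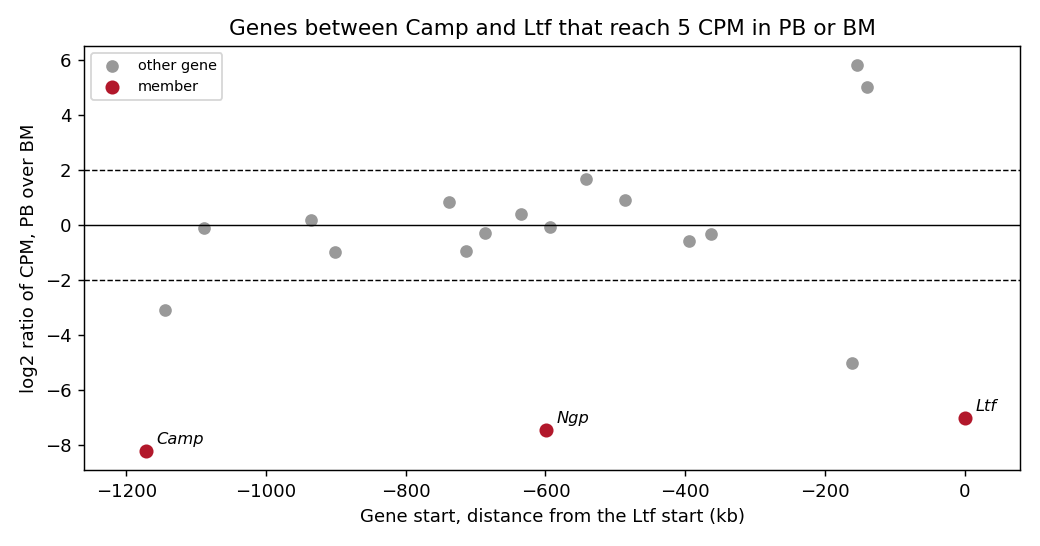
Log2 ratio of CPM in PB over BM for genes in the stretch from Camp to Ltf that reach 5 CPM in PB or BM, against the distance of each gene's start from that of Ltf in kilobases; red points are members, grey points other genes, dashed lines 4-fold. Camp, Ngp and Ltf lie at −8.20, −7.46 and −7.01, and 12 of the 16 other genes lie between the dashed lines.

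Promoter sequences are shown for 5 members, because the primary and specific granule genes were the ones most unequal between marrow and blood and Retnlg is a late gene that was less so. The letters come from RefSeq (GRCm38.p6, the assembly of mm10), run 5′ to 3′ along the gene's strand, end before the first annotated exon base of the gene and hold no exon. They lie at chr10:79886062-79886246 on the plus strand for Elane, chr14:56102575-56102824 on the minus strand for Ctsg, chr9:111019042-111019270 on the plus strand for Ltf, chr9:110419558-110419746 on the plus strand for Ngp and chr16:48872358-48872607 on the plus strand for Retnlg. Capitals mark 3 motifs on either strand. The C/EBP core motif was searched as GCAAT. For PU.1, a master factor of myeloid cells, the core letters searched were GAGGAA. The TATA box was searched as TATAAA.
Elane: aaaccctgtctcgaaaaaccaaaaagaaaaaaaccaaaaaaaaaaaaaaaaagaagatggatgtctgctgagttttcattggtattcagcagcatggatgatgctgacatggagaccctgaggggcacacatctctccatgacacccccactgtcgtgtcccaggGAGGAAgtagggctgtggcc
Ctsg: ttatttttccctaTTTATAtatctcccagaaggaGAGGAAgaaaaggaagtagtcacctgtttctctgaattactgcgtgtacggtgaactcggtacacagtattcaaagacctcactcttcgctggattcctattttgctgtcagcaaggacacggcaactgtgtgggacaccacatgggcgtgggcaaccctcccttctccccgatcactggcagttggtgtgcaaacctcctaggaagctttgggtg
Ltf: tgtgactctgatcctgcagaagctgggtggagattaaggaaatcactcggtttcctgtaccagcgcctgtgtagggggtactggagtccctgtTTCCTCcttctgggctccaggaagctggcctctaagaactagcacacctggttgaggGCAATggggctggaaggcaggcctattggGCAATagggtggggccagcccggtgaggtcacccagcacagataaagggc
Ngp: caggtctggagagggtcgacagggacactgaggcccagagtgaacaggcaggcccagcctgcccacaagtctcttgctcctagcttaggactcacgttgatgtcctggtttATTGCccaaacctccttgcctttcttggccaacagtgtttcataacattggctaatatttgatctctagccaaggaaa
Retnlg: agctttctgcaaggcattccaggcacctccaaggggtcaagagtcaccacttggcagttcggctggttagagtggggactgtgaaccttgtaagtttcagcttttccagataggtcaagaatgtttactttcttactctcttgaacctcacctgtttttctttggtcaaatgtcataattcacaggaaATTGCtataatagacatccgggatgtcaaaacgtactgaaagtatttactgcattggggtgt
Of the 32 members 27 matched a RefSeq promoter, and the 250 bases before the start were searched in each. The PU.1 core was found in 16 of the 27 members and in 23.2% of all 32851 promoters. The C/EBP core was in 10 of the 27 and in 23.1%, and the letters TATAAA in 7 of the 27 and in 12.4%. All 4 primary granule genes held the PU.1 core. Among specific granule and secreted genes, the PU.1 core was in 5 of 9 and the C/EBP core in 4 of 9, the latter being Camp, Lcn2, Ltf and Ngp. Matches of different motifs can share end bases. The C/EBP core match of Elane lies in annotated exon sequence and is not among the letters shown. A match describes the sequence and is no measure of binding.

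MCC was read against marrow and blood to see which neutrophil genes its library carried. Of the 32 members 30 were at least 4-fold lower in MCC than in BM and 0 higher, where 13.5% of 12427 genes tested were lower and 15.6% higher (29.1% in either direction). The median log2 ratio of MCC over BM was −10.41 for the members and 0.11 for all genes tested. For 17 members the difference was at least 1000-fold, among them all 4 primary granule genes. Ly6g and Olfm4 had 0 reads in MCC, which allows up to 0.0694 CPM, so Ly6g was at least 3015-fold and Olfm4 at least 919-fold lower. Retnlg had 9 reads and was 8636-fold (4549 to 18890) lower, and Cxcr2, the neutrophil chemokine receptor, had 2 reads. Chil3 had 12 reads, Mpo 8, Cd177 6 and Padi4 3. Globin genes, which mark red cells, summed with the other erythroid markers to 18.4 CPM in MCC, 94590 in PB and 14060 in BM. In MCC the highest of these markers was Epor, no globin gene, at 6.3 CPM against 0.368 in PB and 91.7 in BM. The globin gene Hbb-bs followed at 4.28 CPM in MCC. Carry-over of marrow or blood RNA into MCC was not tested.

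Members that reached 5 CPM in MCC numbered 8. They were Anxa1 at 488 CPM, Alox5ap at 96.3, Hp at 46.9, Serpinb1a at 38.3, Slpi at 9.58, Lcn2 at 7.98, Lrg1 at 6.02 and Cyp4f18 at 5.53 CPM, and Il1r2 at 4.24 CPM was just below. Outside neutrophils, macrophages are known to make Alox5ap, Slpi and Lcn2, and fibroblasts Anxa1. Which cells supplied the reads of these or the other members in MCC was not tested. Anxa1 was 2.98-fold (2.94 to 3.03) and Alox5ap 3.58-fold (3.46 to 3.71) lower in MCC than in BM, the 2 members short of the threshold. Serpinb1a was 12.6-fold (12.0 to 13.3), Hp 33.2-fold (31.7 to 34.7) and Lcn2 477-fold (429 to 531.5) lower. Against PB, 23 members were at least 4-fold lower in MCC and 0 higher, 3 were neither and 6 were below 5 CPM in both, where 15.4% of 12545 genes tested were lower and 21.5% higher (36.9% in either direction). The 3 that were neither were Serpinb1a, 1.17-fold (1.09 to 1.26) lower in MCC, Alox5ap, 2.18-fold (2.09 to 2.26) lower, and Anxa1, 1.81-fold (1.77 to 1.86) higher. These 2 comparisons and the next share the MCC library.

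**Figure D5:**
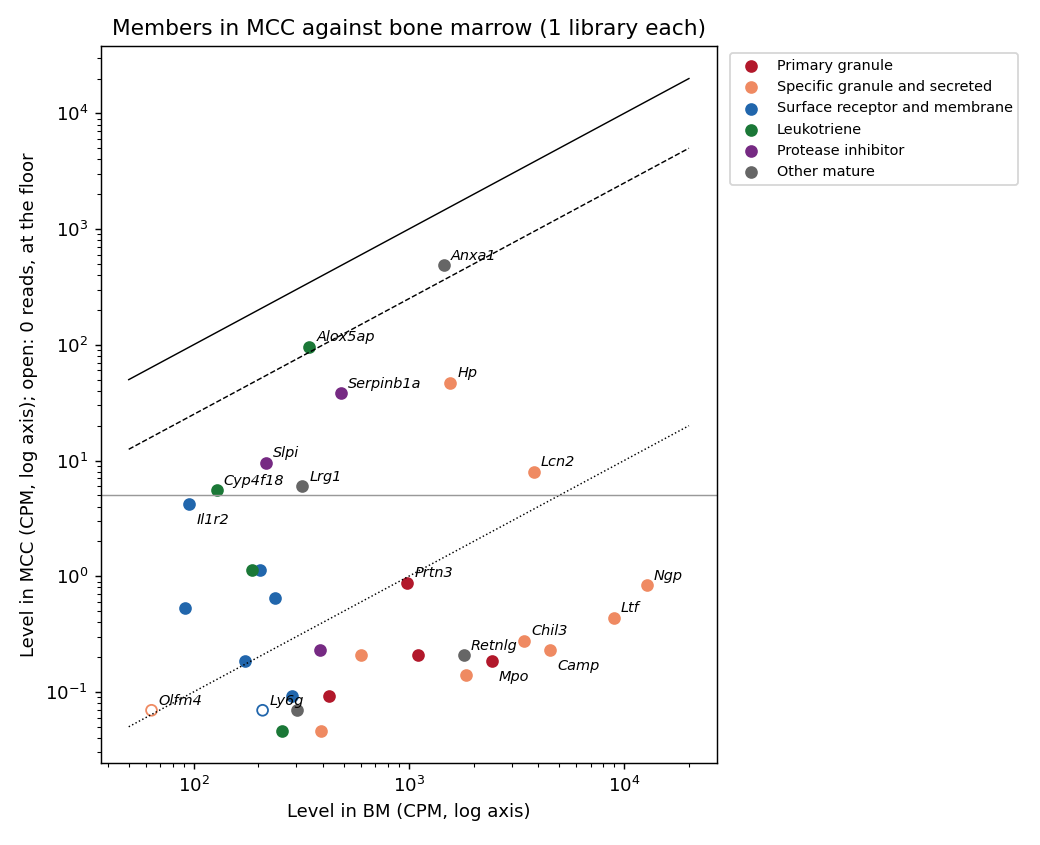
Level of each of the 32 members in MCC against BM, in CPM on log axes (1 library each), coloured by role group; the solid line is equality, the dashed line 4-fold lower, the dotted line 1000-fold lower, and the grey line 5 CPM in MCC, with open circles for 0 reads drawn at the floor. Anxa1 and Alox5ap lie above the 4-fold line, and the most abundant marrow genes Ngp, Ltf and Camp lie below 1 CPM in MCC.

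Set against the fibroblasts (MEF), 8 of the 32 members were tested, and 24 were below 5 CPM in both libraries. Of the 8, 7 passed 4-fold upward in MCC and 0 downward, and Anxa1 was neither. Anxa1 was also the 1 member at 5 CPM or more in MEF. The other 7 met the level minimum through MCC alone, so they could be called only upward. Over all 11720 genes tested, 8.05% were higher and 2.71% lower (10.8% in either direction). Alox5ap was 139-fold (97.1 to 206) higher, Hp 135-fold (81.7 to 242) and Serpinb1a 9.36-fold (8.01 to 11.0). Slpi was 7.82-fold (5.86 to 10.6) higher. Lcn2 had 0 reads in MEF and was at least 115-fold higher. Lrg1 and Cyp4f18 had 1 read each in MEF, with ratios, from the reads as counted, of 260-fold (46.3 to 10320) and 239-fold (42.5 to 9488), too wide to rank against the others. Anxa1 was 1.93-fold (1.90 to 1.96) lower in MCC, at 488 against 943.5 CPM. Among the 24 low members, the primary granule genes together had 59 reads in MCC and 9 in MEF, of which Prtn3 gave 38 and 6.

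Markers of macrophages and fibroblasts were read beside these members, and their part in the ratios was not tested. The 14 monocyte and macrophage markers summed to 9002 CPM in MCC, where 10 of them reached 5 CPM, against 214 CPM in MEF, where Adgre1 and Cd163 had 0 reads. The other 4, Cd163 at 0.995 CPM, Ccr2 at 0.718, Cx3cr1 at 0.556 and the monocyte gene Ly6c2 at 0.185, were below 1 CPM in MCC and at least 4-fold lower than in BM. The 10 fibroblast markers summed to 30360 CPM in MCC and 23330 in MEF, of which Col3a1 gave 11730 and 1770. Of the 10, 4 were at least 4-fold higher in MCC, 1 was lower and 5 were neither. Their median log2 ratio of MCC over MEF was −0.32. Of 25 further granule and phagocyte genes, 9 passed the threshold upward in MCC relative to MEF. Lyz2 at 5597 CPM, Cyba, a subunit of the phagocyte oxidase, at 658 CPM and Ctsc, the protease that activates the granule serine proteases, at 455 CPM led in MCC. Ctsc was 4.28-fold (4.14 to 4.42) higher in MCC than in BM, while its substrates Elane, Prtn3 and Ctsg were below 1 CPM. Of 25 further genes of mature neutrophils and other myeloid cells, 17 were tested, 14 were higher in MCC than in MEF and 0 lower. Since 4 of this list reached 5 CPM in MEF, most of those tested could likewise be called only upward. The list was led in MCC by the Fc receptor genes Fcgr3 at 662 CPM and Fcgr4 at 217 CPM. Csf3r stood at 10.7 CPM in MCC and at 0 reads in MEF.

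MEF and iPSC carried few members at 5 CPM or more. In MEF, 13 of the 32 had 0 reads and Anxa1 was the 1 member at 5 CPM or more. In iPSC, 7 had 0 reads and 4 reached 5 CPM. Of these 4, those other than Anxa1 were below 5 CPM in MEF and could be called only upward against it. Alox5 at 7.88 CPM and Mmp25 at 5.32 CPM passed the threshold upward relative to MEF, Anxa1 at 230 CPM was 4.11-fold (4.02 to 4.19) lower, Serpinb1a was 3.88-fold (3.30 to 4.59) higher and 28 members were below 5 CPM in both. Over all 11931 genes tested, 8.83% were higher and 6.37% lower in iPSC (15.2% in either direction). With total counts in place of the trimmed mean, the higher share of the genes past the threshold moved from 58.1% to 69.6%, and Anxa1 lost its call. Alox5 rested on 412 reads in iPSC and 3 in MEF, a ratio of 114-fold (38.6 to 553), and Mmp25 on 278 and 5, with a counting interval for the ratio of 19.5-fold to 143-fold. Several members below 5 CPM also had 70 reads or more in iPSC. Padi4 had 186 reads (3.56 CPM), Pglyrp1 140 (2.68 CPM), Prtn3 81 (1.55 CPM) and Ly6g 70 (1.34 CPM), while Ngp and Chil3, among the most abundant in marrow, had 0. Padi2 and Padi3, relatives of Padi4, were at 6.24 and 5.28 CPM in iPSC.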

How the data were processed

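Libraries were made from polyadenylated RNA, per the labels' protocols, and the authors deposited whole-number read counts per gene symbol, not normalized. STAR and featureCounts are named in the submitters' processing notes, with mm10 as the genome. The notes give no version, annotation, strand setting or filter that could be used here. Each of the 5 columns was matched to its library by the description in the labels, and 0 columns were left unused.

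From the counts, library sizes were scaled by TMM with edgeR 4.0.16 in R 4.3.3. Ratios and intervals were computed in Python 3.11.15 with scipy 1.17.1 and plots drawn with matplotlib 3.10.9. Sequenced reads carry no stated molecular identifiers, so intervals and floors cover counting error only. Calls, medians and counts of genes past a fold set counts under 3 to 3 per library. Single folds with 1 or 2 reads on 1 side are printed from the reads as counted, with their interval. GENCODE release M21 (mm10) gave exon lengths and gene positions, and RefSeq the promoters. The rule was run on simulated counts of 34970 genes with 100 raised and 100 lowered 8-fold. For PB over BM, 100 of each were recovered, 0 unchanged genes were called and 95.3% of intervals held the true ratio. The simulated counts varied by read counting alone, and 8-fold lies well past the 4-fold threshold. This outcome therefore checks the computation only. It cannot test the rule against variation between animals or libraries, against smaller differences or for genes below 5 CPM.

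The members and lists were chosen with earlier results of these data known. The rule for named genes covered all members, the 3 highest genes of each related list in BM, PB and MCC, relatives of members, selected pathway and regulator genes, and the 2 markers highest in PB from each list. Not every gene that it takes is named. Marker genes outside the rule (Vpreb1, Igll1, Klf1, Epor, Gata1, Slc4a1, Adgre1, C1qa, C1qb, C1qc, Mrc1, Cd163, Ccr2, Cx3cr1 and Col3a1), Padi2 and Padi3 were named after their values were seen. The 5 comparisons were PB with BM, MCC with BM, PB and MEF, and iPSC with MEF. Alternatives were DESeq2 1.42.0 size factors, total counts, TMM without the most abundant genes, 2 other level minimums, 2-fold and 8-fold thresholds and the counting bound. Of 103 related genes 99 were in the table, and the other 4 were not analysed here.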

Additional observations from a re-analysis of the deposited data

How the results depend on the processing

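The counts of members past the threshold were the same or within 1.5 times the reported count under DESeq2 size factors, TMM without the most abundant genes and the counting bound, in all 10 counts (5 comparisons in 2 directions). At 2-fold, 1 member (Il1r2) was higher in PB than in BM, against 0 at 4-fold. With equal Csf3r counts, chosen after seeing the data, 29 members were lower in PB than in BM, as were 4043 of all genes (132 higher), since every log2 ratio moves by −1.43. With no minimum level, 15 members were higher in MCC than in MEF, 6 higher and 3 lower in iPSC than in MEF; at 20 CPM these were 3 higher in MCC than in MEF and 0 higher in iPSC than in MEF. Anxa1, the 1 member lower in iPSC than in MEF, was not called with total counts or at 8-fold, which gave 0. DESeq2 size factors shifted every log2 ratio by 0.18 for PB over BM and by −0.28 for MCC over PB, and total counts by −0.14 for MCC over BM, −0.13 for MCC over PB and 0.36 for iPSC over MEF. Under the 3 planned scalings, Slpi in PB over BM, which was not called, was the 1 member ratio that changed sign; with equal Csf3r counts that of Cyp4f18 did too. No paired analysis was possible because each group has 1 library. Depth limits the primary granule genes outside marrow, where 121 reads or fewer lie behind each level.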
